A study of Capra hircus with 2 samples.

Results

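The miR-148 and miR-152 family consists here of miR-148a, miR-148b and miR-152, which are 3 of the 346 conserved miRNAs that the study listed for the goat mammary gland. The members were chosen by name, and their reads were the tags that matched the first 18 nt of the listed sequence without a mismatch. All 3 members were found in both libraries and passed the filter on low values. Small RNA was sequenced from the mammary gland of Xinong Saanen dairy goats (Capra hircus), and each stage, the dry period and peak lactation, had 1 library. The RNA of each library came from a pool of 3 goats of the same stated age that carried no stated treatment, so no replicates were available and a difference compares these 2 libraries. The sample labels attach 75 days after lambing to the dry period library and 320 days to the peak lactation library, whereas the study's methods attach the same days in reverse. The stages used here follow the sample titles and the labelled state.

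A miRNA is a short RNA that guides silencing proteins to messenger RNAs, mainly through its seed, the bases 2 to 8 from the 5′ end. The members of this family are cut from the 3′ arm of their precursors and carry 1 seed, so they are predicted to share many target messages. The DNA methyltransferase DNMT1 is a well known target of miR-148a and miR-152. The member miR-148a is among the most abundant miRNAs of mammalian milk, and the lactating mammary epithelium is regarded as its main source there.

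The listed mature sequences are shown because the whole comparison rests on telling them apart, and the capitals mark the seed.
miR-148a: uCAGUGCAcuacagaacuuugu
miR-148b: uCAGUGCAucacagaacu
miR-152: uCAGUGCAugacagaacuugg
Of the 346 listed sequences, these 3 alone had the seed CAGUGCA. Counted from 1 at the 5′ end, and with the base of the first-named member given first, miR-148a differed from miR-148b by C9U and U10C, and from miR-152 by C9U, U10G and U20G. The members miR-148b and miR-152 differed by C10G alone over the 18 nt that miR-148b was listed with. In the RefSeq gene table of the goat assembly ARS1.2, MIR148B lies inside the protein-coding gene COPZ1, a coat protein subunit of transport vesicles. MIR148A overlaps the long noncoding RNA LOC108635844, with NPVF and NFE2L3 as the nearest protein-coding genes on either side.

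The libraries had 14851375 (dry period) and 15712891 (peak lactation) clean reads. Of these, 61.1% and 14.4% respectively matched conserved miRNAs by the rule used here. This gap moves with every level given per clean read, and its part in the changes below was not tested. The study's own total of reads matched to miRNA precursors was lower than the count here in the dry period and higher at peak lactation. Those totals thus lay closer together in the libraries and would shift levels less, but no scaling to them was run. Changes of direction given below for scaling to miRNA reads hold for the reads counted here and were not tested with the study's totals. A level of 3 reads was 0.202 and 0.191 reads per 1000000 clean reads (RPM).

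Of the 3 members, only miR-148a had a higher level at peak lactation when reads were divided by all clean reads. The dry period library had 17506 reads of miR-148a and the peak lactation library 27012. These were 1179 RPM (95% Wilson interval 1161 to 1196) and 1719 RPM (1699 to 1739.7), a ratio of 1.46 (1.43 to 1.49). The value at peak lactation lay above that of the dry period, and the intervals, which cover the sampling of reads alone, did not overlap. By number of reads miR-148a moved from rank 37 among the conserved miRNAs in the dry period to rank 17 at peak lactation. Its share of the conserved miRNA reads counted here was 0.193% in the dry period against 1.19% at peak lactation.

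The member with the most reads in the dry period was miR-152, with 35306 reads there and 19787 at peak lactation. Its level was 2377 RPM (2353 to 2402) in the dry period and 1259 RPM (1242 to 1277) at peak lactation, a ratio of 0.530 (0.521 to 0.539). The rank of miR-152 was 26 in the dry period against 21 at peak lactation. The least abundant member, miR-148b, had 2504 and 1421 reads, or 169 RPM (162 to 175) and 90.4 RPM (85.9 to 95.3), a ratio of 0.536 (0.503 to 0.572). Both members thus had about the same ratio of levels per clean read. These directions depend on the scaling, since both ratios were above 1 under each of 4 other scalings that centre on the miRNA reads counted here.

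**Figure D1:**
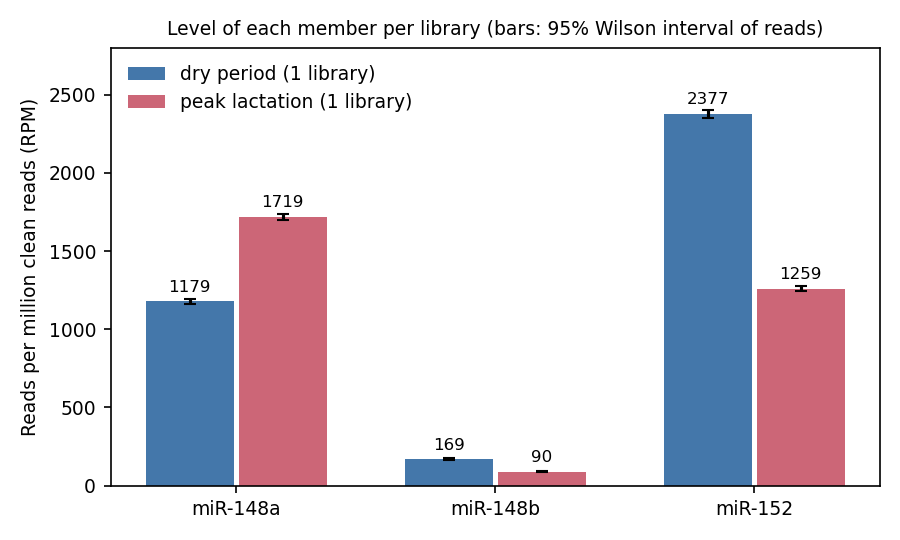
Level of miR-148a, miR-148b and miR-152 in RPM, with 1 bar per library and 95% Wilson intervals of the read counts as error bars. The level of miR-148a was 1179 in the dry period against 1719 at peak lactation, while miR-152 went from 2377 to 1259 and miR-148b from 169 to 90.4. The latter 2 directions turn around when levels are scaled to the miRNA reads counted here.

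The stages were compared over all conserved miRNAs with the Audic-Claverie probability, the study's own test. A call needed a p below 0.01 and a log2 fold change beyond 1 in either direction. Of 257 miRNAs that reached 1 RPM in a library, 174 (67.7%) were called lower at peak lactation and 3 (1.17%) higher. None of the 3 family members was called in either direction, because none passed the limit on the fold change per clean read. These counts depended on the scaling, and with the 4 scalings to miRNA reads 15 to 48 miRNAs were called lower and 21 to 85 higher. Under each of these 4, miR-148a was called higher, and under that to all conserved miRNA reads miR-148b and miR-152 were as well, whereas miR-148b was called lower (-1.06) when its count was limited to whole matches of the listed sequence. The log2 fold change, peak lactation over dry period, was 0.54 for miR-148a (95% interval 0.52 to 0.57), -0.90 for miR-148b (-0.99 to -0.80) and -0.92 for miR-152 (-0.94 to -0.89). For miR-148b the exact Audic-Claverie p was 9.1e-82, and for the other members it was smaller. These p values count reads and say nothing of the spread between goats.

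Against the other miRNAs the members stood in different places. The median log2 fold change of the 257 tested miRNAs was -1.44, with quartiles of -2.15 and -0.92. A log2 fold change above 0 was found for 10 of them (3.89%), and miR-148a ranked 9th from the top, above 96.5% of the tested miRNAs. Its distance from the median was 1.98 on the log2 scale, a quantity that does not change with the scaling of the libraries. For miR-148b and miR-152 the distance was 0.54 and 0.52, and they ranked 62nd and 64th. When only the 77 miRNAs with at least 1000 reads in each library were considered, miR-148a was the only one with a log2 fold change above 0 per clean read. This limit leaves out miRNAs with larger values and fewer reads in the dry period. Among these are miR-451 (762 and 1696 reads, 1.07) and miR-2478 (714 and 1497 reads, 0.99). With the 4 scalings to miRNA reads, 113 to 188 of the 257 tested miRNAs lay above 0, miR-148b and miR-152 among them. Its nearest neighbours by log2 fold change in that set were miR-146b (-0.03), miR-452 (-0.09) and miR-151* (-0.25), all of them below it by more than 0.5. In the same set of 77, the nearest neighbours of both miR-148b and miR-152 were miR-1 (-0.90), miR-379 (-0.92) and miR-10a (-0.93).

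**Figure D2:**
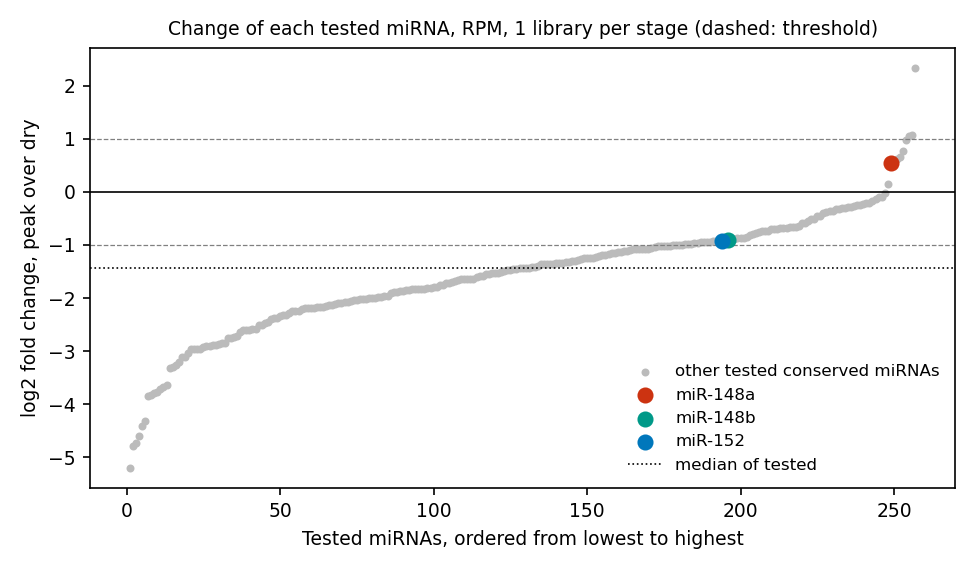
The log2 fold change of RPM, peak lactation over dry period, for the 257 tested miRNAs in rising order, with 1 point per miRNA, dashed lines at the threshold of 1 in each direction and a dotted line at the median. The point of miR-148a (0.54) lies near the upper end, and those of miR-148b (-0.90) and miR-152 (-0.92) lie side by side above the median (-1.44). Scaling to the miRNA reads counted here shifts all points up together and turns the direction of miR-148b and miR-152.

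Because the members were read from the same libraries, their ratio to each other does not depend on how the libraries are scaled. In the dry period library there were 0.496 reads of miR-148a for each read of miR-152, and in the peak lactation library 1.37. The order of these members was therefore reversed between the libraries. The ratio was 2.75 times higher at peak lactation (95% interval 2.68 to 2.83). Against miR-148b the reads of miR-148a were 6.99 to 1 in the dry period and 19.0 to 1 at peak lactation, a change of 2.72 times (2.54 to 2.91). The ratio of miR-148b to miR-152 was 0.0709 in the dry period against 0.0718 at peak lactation. It changed by 1.01 times, and the interval of 0.947 to 1.08 includes no change. When only tags identical to the listed sequences were counted, the log2 change of this ratio was -0.22.

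Taken as 1 pool of seed-sharing molecules, the family held 55316 reads (3725 RPM) in the dry period and 48220 reads (3069 RPM) at peak lactation. The log2 fold change of the sum was -0.28 (95% interval -0.30 to -0.26) per clean read, and it was above 0 under each of the 4 scalings to miRNA reads. The make-up of this pool, which the scaling does not touch, also differed. In the dry period miR-152 held 63.8% of the family reads (63.4 to 64.2%), miR-148a 31.6% (31.3 to 32.0%) and miR-148b 4.53% (4.36 to 4.70%). At peak lactation miR-148a held 56.0% (55.6 to 56.5%), miR-152 41.0% (40.6 to 41.5%) and miR-148b 2.95% (2.80 to 3.10%).

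The bases that separate the members were checked in the reads, since miR-148b and miR-152 differ at 1 of their first 18 bases. In the dry period library 938 reads had a single substitution within the first 18 nt of miR-152, or 2.66% of its reads, against 512 (2.59%) at peak lactation. The most frequent one was U5G with 77 reads in the dry period and A3G with 55 at peak lactation, below 0.3% of the miR-152 reads. The change at base 10 that would turn miR-152 into miR-148b cannot appear among these, since such reads are counted as miR-148b. The reads of miR-148b, by contrast, were 14.1 and 13.9 times fewer than those of miR-152. Beyond the first 18 nt, the bases 19 to 21 of miR-148b reads were UUG, as in miR-148a, in 97.8% of 1245 reads in the dry period and in 98.5% of 791 reads at peak lactation. The UGG of miR-152 followed in 9 and 3 of these reads. Shorter reads of miR-148b, of which 774 and 394 had 18 nt, could not be checked in this way. Reads with U at both of positions 9 and 10, which are C9U of miR-148a, C10U of miR-148b and G10U of miR-152 and so cannot be given to one member, numbered 66 and 51. Other reads also fitted more than 1 member. They numbered 19 and 32 (miR-148a or miR-148b), 14 and 11 (miR-148a or miR-152), and 11 and 8 (miR-148b or miR-152). All of these reads were left out of all 3 counts. Those that fitted miR-152 are among its 938 and 512 reads with a substitution.

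The 5′ end, which sets the seed, varied in few reads. For miR-148a, 28 reads of the dry period library and 20 of the peak lactation library started 1 base later than the listed sequence, or 0.160% and 0.0740% of its reads. For miR-152 there were 11 and 7 such reads, and 35 and 16 that started 2 bases later, while miR-148b had 1 read 1 base later in each library. Reads that started 1 base earlier were as rare, and the most frequent form, a G before miR-152, had 21 and 6 reads.

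The 3′ ends differed more between the members than between the stages. A choice of frequent tags is shown, in the DNA letters of the deposited reads and with the bases after position 18 in capitals, to mark the main ends of each member and the A-ended form described below.
miR-148a, ending at base 22: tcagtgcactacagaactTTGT
miR-148a, base 22 replaced by A: tcagtgcactacagaactTTGA
miR-148b, ending at base 22: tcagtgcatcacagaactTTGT
miR-148b, ending at base 18: tcagtgcatcacagaact
miR-152, ending at base 21: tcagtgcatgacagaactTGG
miR-152, ending at base 22: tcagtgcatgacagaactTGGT
Reads of 22 nt made up 65.8% of the miR-148a reads in the dry period (65.1 to 66.5%) and 67.3% at peak lactation (66.7 to 67.8%). For miR-152 the peak lay at 21 nt, with 51.5% (51.0 to 52.0%) and 54.4% (53.7 to 55.1%), followed by 22 nt with 39.9% and 37.1%. The reads of miR-148b had a pair of peaks. At 18 nt, the length it was listed with, lay 30.9% (29.1 to 32.7%) in the dry period and 27.7% (25.5 to 30.1%) at peak lactation. At 22 nt lay 32.3% (30.5 to 34.2%) and 39.5% (37.04 to 42.1%), so the 22-nt form of miR-148b took a larger share at peak lactation. An end at 18 nt was seen in 9.32% and 7.50% of the miR-148a reads, but in only 1.55% and 1.36% of those of miR-152. Reads under 18 nt had been removed by the authors, so shorter ends were not seen.

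**Figure D3:**
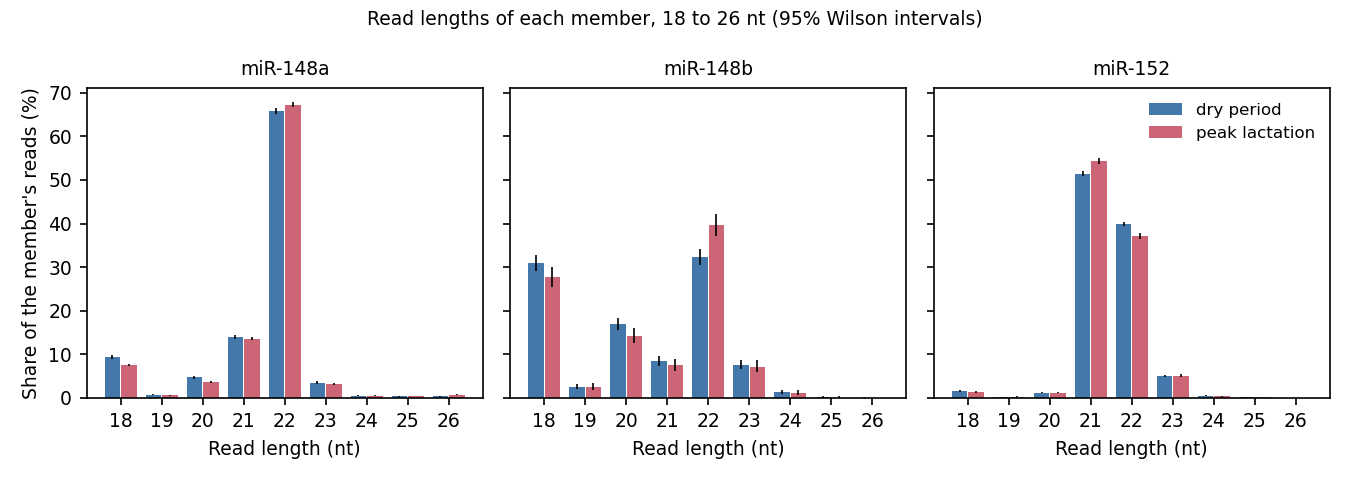
Share of the reads of each member at each read length from 18 to 26 nt, with 1 bar per library and 95% Wilson intervals. The reads of miR-148a peak at 22 nt (65.8 and 67.3%), those of miR-152 at 21 nt (51.5 and 54.4%), and those of miR-148b at both 18 nt (30.9 and 27.7%) and 22 nt (32.3 and 39.5%).

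An A at position 22 was common in all members. It followed the first 21 bases in 10.6% of 14790 miR-148a reads in the dry period (10.1 to 11.1%) and in 10.4% of 23706 at peak lactation (9.99 to 10.8%). For miR-152 the shares were 9.57% (9.26 to 9.89%) and 10.02% (9.60 to 10.5%), and for miR-148b 7.81% (6.43 to 9.45%) and 9.24% (7.40 to 11.5%). The intervals of the 2 stages overlapped for each member. The goat precursor of miR-148a, as the study sequenced it, has a U at this position and ends 3 bases later, in ucagugcacuacagaacuuuguCUC, where the capitals mark the bases after the mature sequence. The A was therefore not in the precursor of miR-148a. Tails of A alone past the match to the precursor were found on 9.54% of the miR-148a reads in the dry period and on 9.36% at peak lactation. Of the miR-152 reads with the first 21 bases, 35.7% (35.1 to 36.2%) had a U at position 22 in the dry period and 32.3% (31.7 to 33.0%) at peak lactation. These intervals did not overlap. The same total includes the reads that ended at base 21, which were 52.8% (52.3 to 53.4%) and 55.8% (55.1 to 56.5%). The share of U thus also moves with the share that ended there.

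Reads of 25 nt or more were found mainly for miR-148a within the family and took a larger share of its reads at peak lactation. They numbered 267 in the dry period, or 1.53% of its reads (1.35 to 1.72%), and 1017 at peak lactation, or 3.76% (3.54 to 3.999%). The longest had 34 and 35 nt. For miR-152 there were 37 and 35 such reads (0.105 and 0.177%), and for miR-148b 5 and 3 reads (0.200 and 0.211%). The level of miR-148a without 1 large class of these long reads is given among the processing alternatives.

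**Figure D4:**
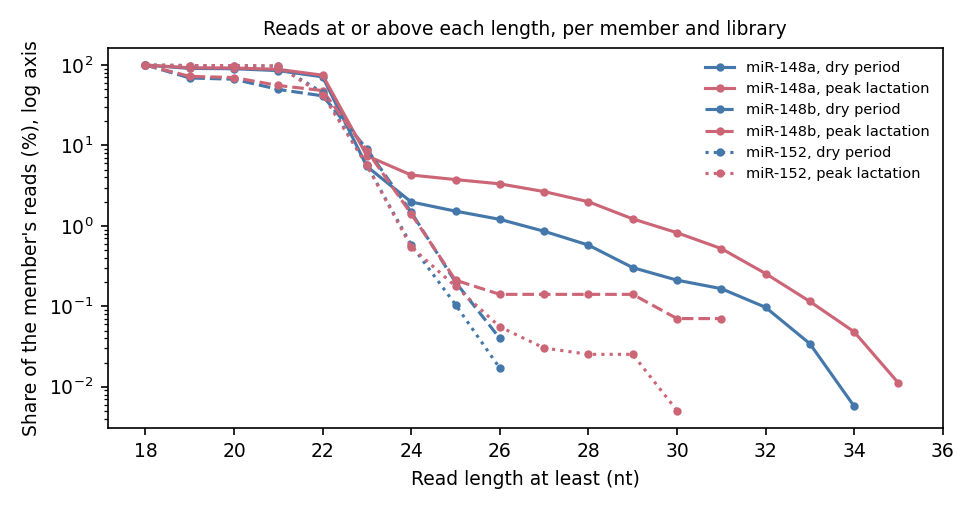
Share of the reads of each member that were at least as long as the length on the x axis, on a log axis, for both libraries. At 25 nt the lines of miR-148a lie above those of the other members, with the peak lactation library (3.76%) higher than the dry period library (1.53%).

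The opposite arm of the miR-148a precursor was rare. Tags within the 5′ side of the precursor held 30 reads in the dry period against 31 at peak lactation, or 0.171% (95% exact interval 0.115 to 0.244%) and 0.115% (0.0779 to 0.163%) of the reads of both arms. The most frequent such tag was aaaguucugagacacuccga, with 21 and 19 reads. The reads counted for the mature arm were thus 584 times those of the opposite arm in the dry period and 871 times at peak lactation. Reads of the mature arm could carry any tail, whereas those of the opposite arm had to lie within the precursor. The intervals of the share overlapped between the stages.

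The family was set beside other miRNAs known to be abundant in milk, again per clean read. The list had 21 names, and miR-22 matched both of its arms, of which miR-22-5p had 199 and 111 reads. Of 22 tested miRNAs in that list, which holds miR-148a itself, 9 were called lower and 0 higher by the Audic-Claverie test, against 67.7% called lower and 1.17% higher among all tested miRNAs, and the median log2 fold change was -0.94. The only value above 0, found in 3.89% of all tested miRNAs, was that of miR-148a, and the lowest was that of miR-182 (-3.85). Of 7 miRNAs typical of epithelium, 3 were called lower, against the same 67.7%, and 0 higher, with a median of -0.96 and values from -1.99 for miR-429 to -0.09 for miR-141. Their summed level was 3009 RPM in the dry period and 1589 RPM at peak lactation.

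Lists of other cell types had calls in both directions, again per clean read. Lower calls were made for 4 of 5 miRNAs of skeletal and heart muscle (miR-206 -2.60 to miR-1 -0.90), 5 of 6 of smooth muscle and stroma (miR-199a-3p -2.96 to miR-143 -0.86) and 3 of 4 of blood and immune cells other than red cells (miR-223 -2.32 to miR-150 -0.41), near the 67.7% of all tested miRNAs. The endothelial miR-126 (-0.74) was not called. Of the 3 red blood cell miRNAs, 2 were called higher, against 1.17% of all tested miRNAs, with values from 0.15 for miR-486 to 1.07 for miR-451. The median of all tested miRNAs, -1.44, is also the level against which these values are to be read. In such bulk RNA, fewer cells of a type and less miRNA per cell cannot be told apart, and the part of cell makeup in the family's values was not tested.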

How the data were processed

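Each stage had 1 small RNA library, made of the pooled RNA of 3 goats. After filtering on quality, adaptor artefacts, poly(A) and a minimum length of 18 nt, the authors deposited unaligned, unnormalized counts of clean reads per unique tag of 18 to 44 nt. Base calling was with CASAVA per the labels. The family and the miRNA lists were chosen with earlier results of these data known.

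A tag was counted for the listed conserved miRNA that matched it over the most bases from its first base on, 18 at least, and ties were counted for each. Counts were divided by clean reads per 1000000. A count of 0 was set to 0.01 RPM, and a miRNA was tested if it reached 1 RPM in either library. The Audic-Claverie probability (two-sided, the smaller tail doubled) was computed over all tested miRNAs. Intervals (Wilson or exact, and Wald for the change of ratios between members, 95%) cover counting error only. The share that a count of 0 allows was taken as 3 reads over the total. Named miRNAs were the members, the 3 closest in log2 fold change to each among those with at least 1000 reads in each library, and the ends of each list. The code was tested on simulated data. Python 3.11.15, numpy 2.4.6, scipy 1.17.1, matplotlib 3.10.9, R 4.3.3, edgeR 4.0.16 and DESeq2 1.42.0 were used. Gene names came from RefSeq, where 2 of the 3 members matched. No coordinates are given, since the reads were not aligned here. The spread between goats could not be estimated.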

Additional observations from a re-analysis of the deposited data

How the results depend on the processing

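The scaling of the libraries decided the direction of most levels. Divided by the reads of conserved miRNAs, scaled by TMM factors of edgeR, by DESeq2 size factors and with the median of the tested miRNAs set to 0, in this order, the log2 fold change of miR-148a was 2.63, 1.84, 1.94 and 1.98 and was then called higher. With the first of these, miR-148b and miR-152 were called higher too. The log2 fold change of miR-148b was 1.19, 0.40, 0.50 and 0.54, that of miR-152 was 1.17, 0.38, 0.48 and 0.52, and that of the family sum 1.80, 1.02, 1.12 and 1.16. The numbers of miRNAs called lower were 15, 48, 42 and 42, and of those called higher 85, 21, 28 and 31. Counting identical tags only, which leaves out all other 3′ ends, gave -1.06 for miR-148b, now called lower, -0.17 for the family sum, 1.41 for the change of the ratio of miR-148a to miR-152, 1.63 for that to miR-148b, -0.22 for that of miR-148b to miR-152, and 35.4% (dry period) and 59.4% (peak lactation) for the share of miR-148a. Tags of 20 to 24 nt alone gave -0.31 for the family sum and 29.9% and 53.8% for these shares. Leaving out tags of 24 nt or more that end in CCAT (chosen after the data were seen) gave a log2 fold change of 0.52 for miR-148a and a share of 55.4% at peak lactation. Tags with at least 5 reads put 67.8% of the miR-148a reads of the peak lactation library at 22 nt. With each tag counted once, the shares at the listed length, dry period first, were 10.7% and 6.31% for miR-148a, 2.56% and 3.45% for miR-148b, and 13.7% and 13.0% for miR-152, and those with an A at position 22 were 20.2% and 15.5%, 15.0% and 11.8%, and 23.6% and 20.8%. The first 18 nt at any offset, 1 mismatch, the exact binomial test, the Benjamini-Hochberg adjustment and both other filters on low counts changed no call or direction of a member. No paired analysis was possible because each stage had 1 library, and for the same reason no library could be left out.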

Other observations

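Many of the long reads of miR-148a ended in the bases CCAT, a class chosen after its values were seen. Tags of 24 nt or more with this end held 122 reads in the dry period, or 0.697% of the miR-148a reads (95% Wilson interval 0.584 to 0.831%), and 712 at peak lactation, or 2.64% (2.45 to 2.83%). The 5 most frequent ones are shown with the bases past the match to the miR-148a precursor in capitals.
28 nt, 35 and 171 reads: tcagtgcactacagaactttgtAACCAT
27 nt, 27 and 139 reads: tcagtgcactacagaactttgtACCAT
26 nt, 21 and 106 reads: tcagtgcactacagaactttgtcCAT
29 nt, 10 and 92 reads: tcagtgcactacagaactttgtAAACCAT
30 nt, 5 and 59 reads: tcagtgcactacagaactttgtTAAACCAT
The unmatched bases began after base 22 of the mature miRNA in 4 of these tags and 1 base later, past a base that matches the precursor, in the other. Less frequent tags had the same kind of end 2 bases past base 22 or directly after base 21. The matching bases past base 22 can belong to the precursor or to the added end. The later starts therefore cannot be told from a start directly after base 22. Among the miRNAs with at least 1000 reads, miR-148a had the highest share of such reads in both libraries, rank 1 of 105 in the dry period and of 79 at peak lactation. The next, miR-16a and miR-16b, whose counts share their reads, had 0.488% and 1.22%. In the dry period miR-148b had 0 of 2504 reads of this kind, which allows a share of up to 0.120%, and miR-152 had 0 of 35306, which allows up to 0.00850%. At peak lactation each of these members had 2. Over all conserved miRNAs other than miR-148a the share was 0.00729% and 0.0236% of the reads. Outside the conserved miRNAs, tags ending in ctaaaccat, a longer end than CCAT, held 2475 reads (167 RPM) in the dry period and 1138 reads (72.4 RPM) at peak lactation. The most frequent of them all ended in cacctggtgctaaaccat. They held 1112, 600 and 424 reads in the dry period but 54, 186 and 50 at peak lactation. These few tags made up most of the dry period sum, so its order between the libraries does not speak for the other tags. The source of the tails was not tested.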
